A study of Mus musculus with 9 samples.

Results

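Histone H3.3 and the proteins that deposit it are encoded by the 10 genes described here, which were chosen by name for their roles and make up 10 of 22367 protein-coding genes on the assembled chromosomes of mouse genome build mm9. H3f3a and H3f3b encode H3.3 itself. Hira, Ubn1 and Cabin1 encode the HIRA complex, Asf1a and Asf1b the ASF1 histone chaperones, Daxx and Atrx a second deposition complex, and Dek a chromatin protein that also handles H3.3. The ATAC-Seq libraries were made from mouse embryonic fibroblasts (MEFs) that carried Oct4 tagged with GFP and were infected with pMXs retroviruses for Oct4, Sox2, Klf4 and c-Myc (OSKM), then kept in feeder-free medium with LIF. D0 is day 0, D3 the unsorted cells of day 3, D6T- and D9T- the Thy-1- cells of days 6 and 9, D12S+ and D16S+ the SSEA-1+ cells of days 12 and 16, and iPSCs the fully reprogrammed cells. For D6 siH3.3 and D6 siNT, MEFs were transfected before infection with pooled siRNAs against H3.3 or with non-targeting siRNA, and were collected at day 6. Which of the listed siRNA pools against H3.3 was used for D6 siH3.3 is not stated. The labels call both siRNA libraries Thy-1- sorted, while the study's own library table lists no sorting for them. Each of the 9 conditions had 1 library, so no difference had a replicate check and none was tested.

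H3.3 is the replacement form of histone H3 and is placed into chromatin outside DNA replication as well as during it, whereas the canonical H3 proteins are made in S phase and placed mainly behind the fork. The HIRA complex is known to place H3.3 at transcribed genes and regulatory elements, with ASF1 proteins handing over the H3-H4 dimer, and DAXX with ATRX places it at telomeres and other heterochromatin. ATAC-Seq reads where the transposase Tn5 can cut, so a summit at a promoter measures open chromatin there and neither mRNA nor protein.

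Both H3.3 genes encode the same protein from different DNA. The coding sequences of H3f3a and H3f3b differed at 95 of 411 bases, and all 136 residues were identical. Between H3f3a and the canonical gene Hist1h3a, 5 of 136 residues differed. Asf1a and Asf1b shared 146 of 204 aligned residues (71.6%). The study's forward qPCR primers begin at the start codon of each H3.3 gene and are shown because they differ over the same residues. Whether each primer amplifies its gene alone was not tested. Capitals mark the 3 differing bases (T6C, T9A and A12C, H3f3a first, counted from the 5′ end). Each primer was searched for in its own gene only. The matches lay at mm9 chr1:182742038-182742057 and chr11:115885304-115885323, both on the minus strand.
H3f3a F: atggcTcgTacAaagcagac
H3f3b F: atggcCcgAacCaagcagac

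The promoters of the H3.3 genes also differed in sequence. In the RefSeq promoters (GRCm38.p6, from 250 bases before to 50 after the start, each found once in mm9), the motif GGGCGG, the GC box, matched 6 times for H3f3a, overlapping matches included, and not at all for H3f3b, with both strands searched. CCAAT matched 4 times for H3f3b and once for H3f3a, and TATAAA matched in H3f3b alone among the 10 genes. Of 32851 RefSeq promoters, 35.7% held GGGCGG, 37.4% CCAAT and 13.6% TATAAA. Windows of 30 bases around 4 of these matches are printed on the minus strand, with the match in capitals.
H3f3a GC box, 79 bases upstream of the RefSeq start, chr1:182743798-182743827: gggggaggggagGGGCGGggcgcgcggggg
H3f3a CCAAT box, 24 bases upstream, chr1:182743743-182743772: ccattgtgtgtgATTGGctggagcgcggcg
H3f3b CCAAT box, 97 bases upstream, chr11:115885898-115885927: cgaaagctcccgCCAATcgaaaaagtcgtt
H3f3b TATA box, 27 bases upstream, chr11:115885828-115885857: gtgcagcgtctcTATAAAtatggaggcgtc
The letters say what these windows hold, and a match is not a bound site.

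Across the 10 genes, CCAAT matched for 9, all but Hira, and GGGCGG for 8, all but H3f3b and Atrx, where Daxx counted once for its 3 RefSeq promoters. CCGGAAG, the ETS motif, matched for Hira and Daxx (8.86% of all promoters), AAGATGG of YY1 for H3f3a, Ubn1 and Asf1a (6.34%), and TTNGCGC of E2F for Daxx, Atrx and Dek (6.36%). TGACGTNA, the cyclic AMP response element, and CACGTG, the E-box, matched for Ubn1 only (2.93% and 7.15%). GC content ran from 50.3% for Atrx to 75.7% for Dek, against a median of 52.7% over all promoters. The CpG observed over expected ratio ran from 0.583 for Atrx to 1.09 for Dek, and all 10 lay above the median of 0.384.

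Several of these genes start close to the start of a gene that runs the other way. GENCODE placed the start of another gene on the other strand within 1 kb for 5 members, with 144 bp between H3f3a and Gm16067, 270 bp between Hira and Mrpl40, 158 bp between Ubn1 and Glyr1, 302 bp between Asf1b and Gm10644, and 97 bp between Daxx and BC051226. The stretches between the starts of the closest coding pair (up to the RefSeq start of Ubn1) and of the Daxx pair are shown on the plus strand, because the highest summit lay inside them in 9 of 9 libraries for Ubn1 and 6 of 9 for Daxx. Capitals mark CACGTG, TGACGTNA and CCAAT (here as ATTGG) in the first and GGGCGG (as CCGCCC) in the second.
Ubn1 and Glyr1, chr16:5050004-5050149: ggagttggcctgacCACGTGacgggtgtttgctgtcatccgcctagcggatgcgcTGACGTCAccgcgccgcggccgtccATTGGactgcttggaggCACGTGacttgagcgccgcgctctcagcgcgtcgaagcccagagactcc
Daxx and BC051226, chr17:34046263-34046358: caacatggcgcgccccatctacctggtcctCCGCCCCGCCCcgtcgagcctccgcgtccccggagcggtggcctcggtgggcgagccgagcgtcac
A summit in such a stretch belongs to both genes of the pair, and their shares cannot be told apart.

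The libraries differed in depth and in the level of promoters as a whole. Total tags ran from 13213117 (D9T-) to 31714845 (D0). All values below are the pileup at the highest summit, in tags per 1000000 total tags (CPM), which has no gene length in it. The median over all called protein-coding promoters was 0.82 CPM at D0 and 1.65 at D3, 2.71 and 1.36 in D6T- and D9T-, 1.93 and 1.84 in D12S+ and D16S+, 1.02 in iPSCs, and 1.23 and 1.19 in D6 siH3.3 and D6 siNT. A gene that only followed this median has a ratio of 0 on the log2 scale once the median ratio over all genes is taken off, and the ratios below are given in that way. Of 6 pluripotency markers, 1 was called at D0, 2 at D3, 2 in D6T-, none in D9T-, 5 in D12S+, 6 in D16S+, 6 in iPSCs, none in D6 siH3.3 and 1 in D6 siNT. The calls up to D6T- and in D6 siNT were of Esrrb, with Tdh at D3 and D6T-, while Nanog, Zfp42 and Dppa5a had a promoter region only in D12S+, D16S+ and iPSCs. Of 6 fibroblast markers, 4 were called at D0, where Col3a1 and Prrx1 were not, 6 at D3, 5 in D6T-, 3 in D9T-, 5 in D12S+, 5 in D16S+, 3 in iPSCs, 3 in D6 siH3.3 and 4 in D6 siNT. The part of other cells in the values of the members was not tested. The endothelial markers Cdh5 and Pecam1 were both called at D0, D3 and D6T-, and Cdh5 also in D12S+ and Pecam1 in iPSCs. Of the muscle markers, Myog was called at D6T- alone and Myod1 nowhere. The epithelial markers Epcam and Cdh1 were called in D12S+, D16S+ and iPSCs, and Cdh1 also at D3. No blood marker was called in any library.

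Most of these promoters were open throughout. A promoter region, which is a merged peak reaching into the 3 kb upstream of a start, was called in every library for 8 of the 10 genes, against 58.7% of the 16714 protein-coding genes with one in any library. The exceptions were Atrx and Dek, each without a region at D9T- only, the shallowest library, where the lowest summit called held 7 tags or 0.53 CPM. From 7 to 9 of the members called in a library lay above its median promoter. Exact 95% Poisson intervals are given for counting error only, and the choice of the highest summit makes values lean high.

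H3f3a had a summit of 1.23 CPM at D0 and 2.94 at D3, 3.93 and 0.984 in D6T- and D9T-, 3.24 and 2.31 in D12S+ and D16S+, 1.5 in iPSCs, and 1.55 and 1.42 in D6 siH3.3 and D6 siNT. It was highest at D6T- and lowest at D9T-, the library where it also ranked lowest. Its percentile among the called promoters of a library ran from 26.3 at D9T- to 79.2 in iPSCs, and the D9T- value rested on 13 tags (0.524 to 1.68 CPM). The highest summit lay within 106 bp of an annotated start in every library.

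H3f3b reached 0.883 CPM at D0 and 2.68 at D3, 5.38 and 1.74 in D6T- and D9T-, 3.24 and 2.88 in D12S+ and D16S+, 2.52 in iPSCs, and 1.5 and 1.88 in D6 siH3.3 and D6 siNT. It was lowest at D0, where it ranked at the percentile 54.6, and stood at 96.4 in iPSCs. The interval was 0.587 to 1.28 CPM at D0 and 1.95 to 3.2 in iPSCs, so these did not overlap. The same held for Asf1b (1.36 to 2.33 CPM at D0 and 2.45 to 3.83 in iPSCs). These values have no median taken off, and the median promoter stood at 0.82 CPM at D0 and 1.02 in iPSCs. The H3f3b summits lay 86 to 149 bp upstream of the nearest start, whereas those of H3f3a fell on either side of a start.

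**Figure D1:**
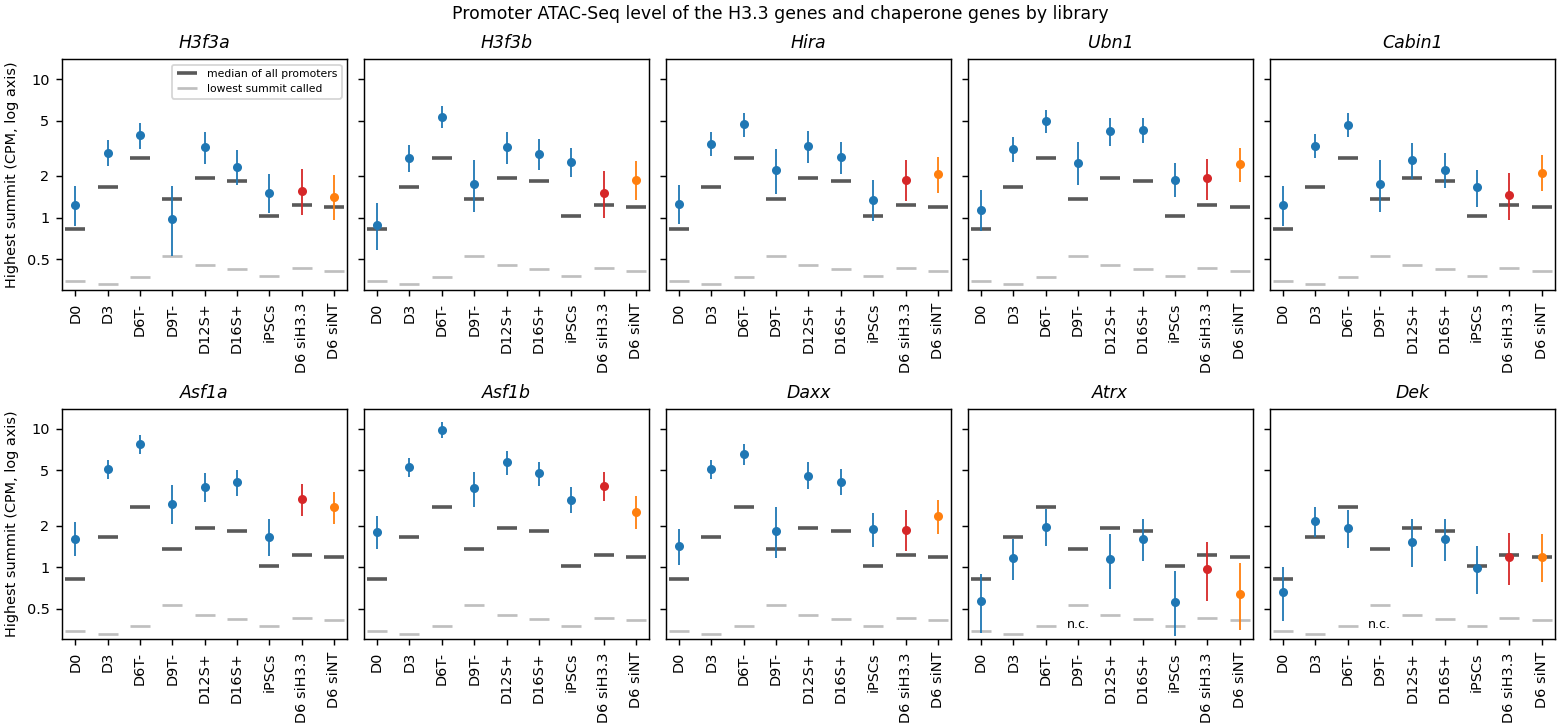
Highest summit within 1 kb of a start of each gene in CPM on a log axis, by library. Bars are exact 95% Poisson intervals for counting error, in blue for the time course, red for D6 siH3.3 and orange for D6 siNT. Dark dashes mark the median of all called promoters and pale dashes the lowest summit called. Asf1b, Asf1a, Daxx, Ubn1, Hira, Cabin1 and H3f3b lie above the dark dashes in all 9 libraries. Atrx lies below them wherever it was called, and n.c. marks the libraries where no region was called (D9T- for Atrx and Dek).

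The start of Unk, a gene on the other strand, stands 2360 bp from the start of the longest H3f3b transcript, so the 3 kb window of H3f3b reaches into it. The values above therefore take the highest summit within 1 kb of an H3f3b start, a limit set after the values were seen. Their percentiles rank that summit against the highest summits in the whole 3 kb windows of all genes. The Unk summit held 0.914 CPM at D0 and 1.55 at D3, 2.57 and 1.06 in D6T- and D9T-, 2.95 and 3.97 in D12S+ and D16S+, 1.24 in iPSCs, and 0.803 and 1.06 in D6 siH3.3 and D6 siNT. It was higher than that of H3f3b at D0 (29 against 28 tags) and D16S+ (84 against 61 tags) and lower in the other 7 libraries. H3f3b over Unk was 0.966 at D0 and 2.03 in iPSCs, with the extremes at D16S+ (0.726) and D6T- (2.09). No region was called over the far upstream H3f3b start itself.

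**Figure D2:**
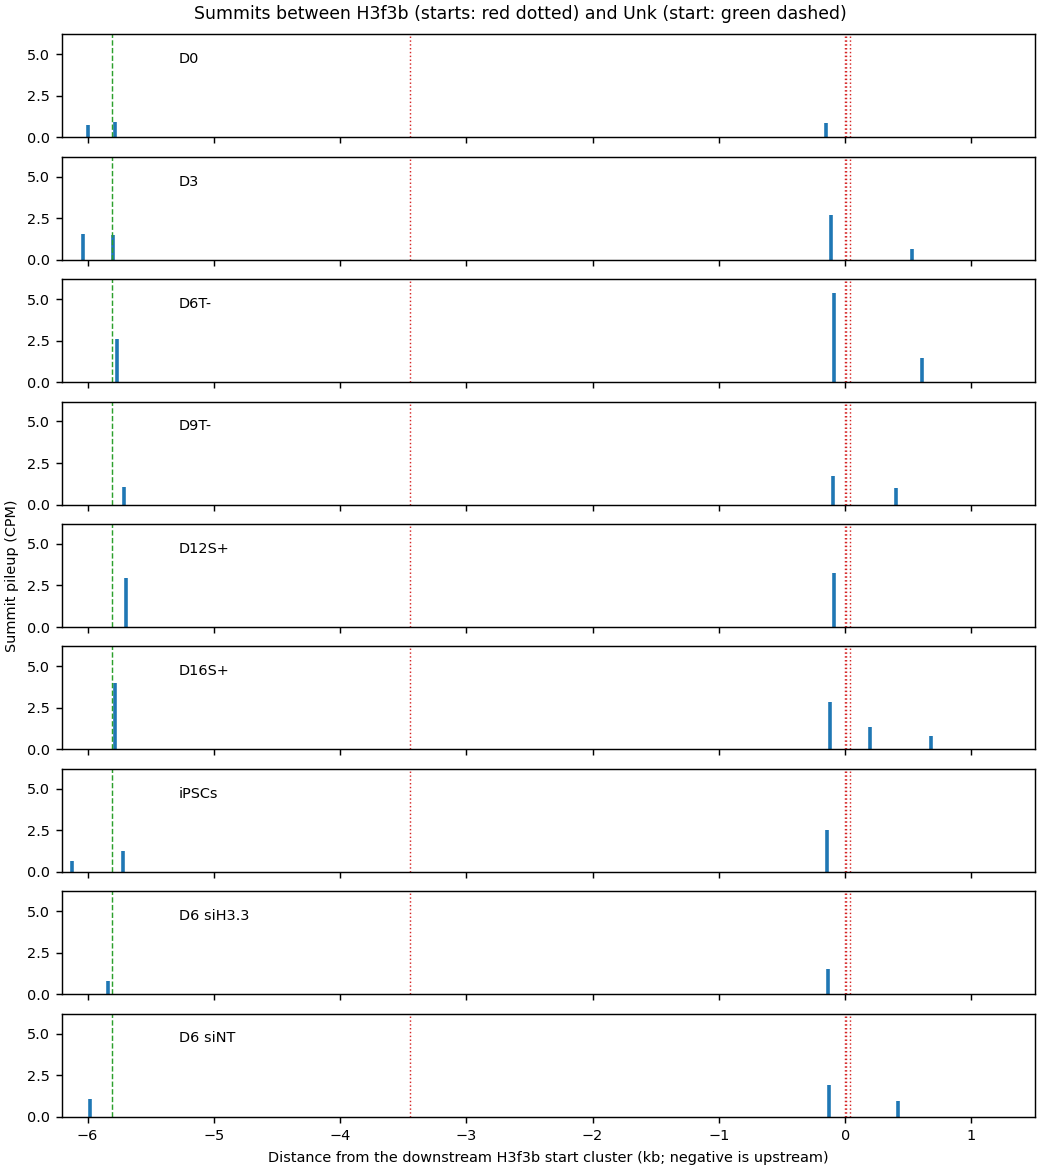
Summits around H3f3b and Unk in each of the 9 libraries, as pileup in CPM against the distance in kb from the downstream cluster of H3f3b starts (red dotted lines, H3f3b starts; green dashed line, Unk start). The H3f3b summit stands just upstream of the cluster in every library and is taller than the Unk summit except at D0 and D16S+.

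Hira, the scaffold of its complex, had 1.26 CPM at D0 and 3.41 at D3, 4.72 and 2.19 in D6T- and D9T-, 3.29 and 2.74 in D12S+ and D16S+, 1.35 in iPSCs, and 1.87 and 2.07 in D6 siH3.3 and D6 siNT. Its percentile stayed between 72.7 and 84.6 over the 9 libraries. The summit lay 369 to 501 bp upstream of the GENCODE start, past the start of Mrpl40, which encodes a mitochondrial ribosomal protein. RefSeq starts Hira 287 bp further upstream than GENCODE, and from there the same summits lay 82 to 214 bp upstream. The summits lay 99 to 231 bp inside Mrpl40, and the shares of Hira and Mrpl40 in them cannot be told apart.

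Ubn1, which binds H3.3 within the complex, had 1.14 CPM at D0 and 3.14 at D3, 5 and 2.5 in D6T- and D9T-, 4.2 and 4.3 in D12S+ and D16S+, 1.88 in iPSCs, and 1.93 and 2.43 in D6 siH3.3 and D6 siNT. Its percentile was lowest at D0 (72.9) and highest at D16S+ (92.2). Cabin1, the remaining subunit, had 1.23 CPM at D0 and 3.31 at D3, 4.67 and 1.74 in D6T- and D9T-, 2.61 and 2.22 in D12S+ and D16S+, 1.66 in iPSCs, and 1.45 and 2.11 in D6 siH3.3 and D6 siNT. Its percentile ran from 59.8 in D6 siH3.3 to 84.3 in iPSCs, and its summit stayed within 32 bp of a start. For each of the 3 subunits D6T- was the highest library, and the median over all called promoters was also highest there (2.71 CPM).

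The ASF1 genes ranked highest of the set by their median percentile. Asf1b, the form linked to proliferating cells, had 1.8 CPM at D0 and 5.26 at D3, 9.86 and 3.71 in D6T- and D9T-, 5.73 and 4.77 in D12S+ and D16S+, 3.08 in iPSCs, and 3.86 and 2.52 in D6 siH3.3 and D6 siNT. Asf1a, the form that works with HIRA, had 1.61 CPM at D0 and 5.13 at D3, 7.76 and 2.88 in D6T- and D9T-, 3.8 and 4.11 in D12S+ and D16S+, 1.66 in iPSCs, and 3.11 and 2.71 in D6 siH3.3 and D6 siNT. The percentiles were 89.3 to 98.6 for Asf1b and 84.3 to 95.5 for Asf1a. In iPSCs the intervals of Asf1b (2.45 to 3.83 CPM) and Asf1a (1.2 to 2.22 CPM) did not overlap, while at D0 and D3 they did.

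The genes of the other deposition complex stood far apart. Daxx, the H3.3 chaperone of the pair, had 1.42 CPM at D0 and 5.13 at D3, 6.54 and 1.82 in D6T- and D9T-, 4.6 and 4.16 in D12S+ and D16S+, 1.88 in iPSCs, and 1.87 and 2.34 in D6 siH3.3 and D6 siNT. Atrx, its X-linked chromatin remodeller partner, had 0.568 CPM at D0 and 1.16 at D3, 1.96 in D6T-, 1.14 and 1.61 in D12S+ and D16S+, 0.564 in iPSCs, and 0.964 and 0.643 in D6 siH3.3 and D6 siNT. The percentiles were 67.1 to 95.5 for Daxx and 9.97 to 41.6 for Atrx, which do not overlap. The Atrx values rested on 14 to 42 tags. Dek had 0.662 CPM at D0 and 2.15 at D3, 1.92 in D6T-, 1.53 and 1.61 in D12S+ and D16S+, 0.978 in iPSCs, and 1.18 and 1.19 in D6 siH3.3 and D6 siNT, with percentiles of 32.6 to 63.9. Dek was above the median promoter at D3 alone.

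By median percentile the order was Asf1b (95.9), Asf1a (91.3), Daxx (89), Ubn1 (83), Hira (77.1), Cabin1 (76.4), H3f3b (75.2), H3f3a (68.2), Dek (44) and Atrx (28.9). Neighbours in this order overlapped in their ranges over libraries and were not told apart. Atrx did not overlap with Asf1b, Asf1a, Daxx, Ubn1, Hira, Cabin1 or H3f3b.

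**Figure D3:**
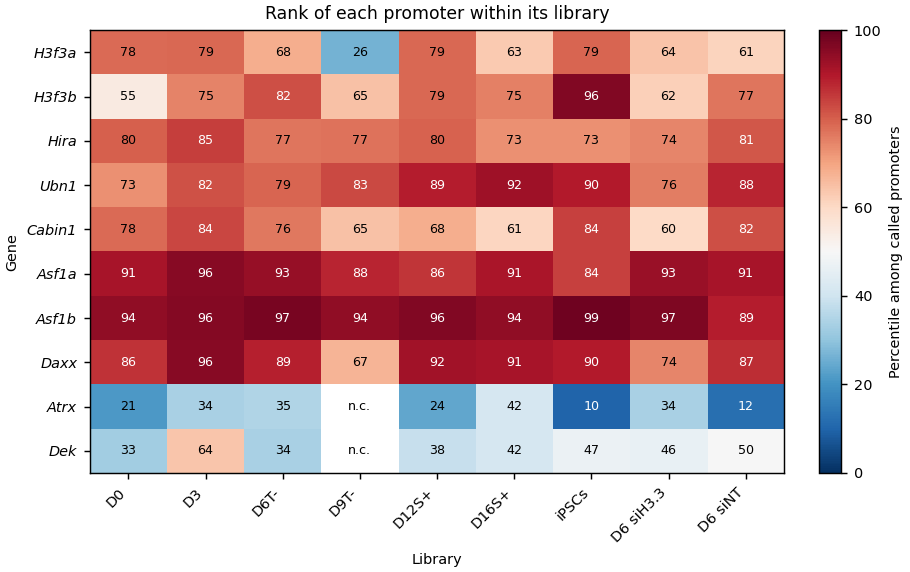
Percentile of each gene's highest summit within 1 kb of a start, among all called protein-coding promoters of the same library. Those promoters are taken by the highest summit of the whole 3 kb window. Rows are genes and columns libraries, with red above and blue below the middle, and n.c. where no region was called. Asf1b stays at 89.3 or above and Atrx at 41.6 or below, while H3f3b moves from 54.6 at D0 to 96.4 in iPSCs.

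The first comparison of the time course was D3 with D0. The median log2 ratio over 12586 genes was 1.17 before it was taken off. Relative to it the members had a median of 0.34, and 9 of 10 lay above 0. Taking the median off places as many of all genes above 0 as below it. Daxx was the 1 member past 1.5-fold, at 0.68 (0.19 to 1.19, exact 95% interval for counting error), against 30.1% of all genes past 1.5-fold in either direction. Among the members only the intervals of Daxx and Asf1a (0.03 to 0.99) left out 0. With the median taken over genes that had a promoter region in all 9 libraries, Daxx was at 0.55 and no member passed. The members' median was then 0.21, and H3f3a was at -0.04. With the median over all genes, Atrx was lowest at -0.14.

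At D6T- against D0 the median over all genes was 1.93 and the members' median relative to it was 0.11. H3f3b was the 1 member past 1.5-fold, with 115 against 29 tags and a log2 ratio of 0.63 (0.03 to 1.27), beside 31.0% of all genes. The ratios take the highest summit of the whole 3 kb window, and the 29 tags at D0 are those of Unk, against 28 at H3f3b. H3f3b fell short of 1.5-fold, and no member passed, at 0.50 with the median over genes called in all 9 libraries, at 0.56 with as many of the strongest peaks as the smallest library has, and at -0.46 with the H3f3b start farthest upstream alone. Asf1b followed at 0.53 (0.10 to 0.98), and Dek was lowest at -0.39. H3f3a was at -0.25 (-0.82 to 0.33).

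In iPSCs against D0, H3f3b had the highest ratio of the 10 genes. Its 67 against 29 tags gave a log2 ratio of 1.13 (0.48 to 1.81), a 2.18-fold higher level relative to the median gene, at the percentile 98.1 of all genes. With the D0 summit of H3f3b itself in place of that of Unk, the ratio was 1.18, and with the H3f3b start farthest upstream alone, whose window holds the Unk summit and not the downstream starts, it was 0.10. It was the 1 member past 1.5-fold, against 25.9% of all genes, and the 1 past 2-fold, against 6.45%. H3f3a was at -0.05 (-0.72 to 0.63), and the intervals of both H3.3 genes overlapped between 0.48 and 0.63. The H3f3b interval overlapped those of 7 of the other 9 genes, the exceptions being Hira and Asf1a. The other 8 genes lay between -0.35 (Atrx) and 0.44 (Asf1b), and the members' median was 0.08.

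The siRNA control D6 siNT and D6T- are both day 6 cells. The median over all genes of D6 siNT over D6T- was -1.42, and relative to it the members' median was -0.05. Dek was the 1 member past 1.5-fold at 0.74 (-0.03 to 1.48), beside 17.5% of all genes. Asf1b was lowest at -0.55 (-1.0 to -0.11). The siRNA libraries and the time course thus differed before H3.3 was targeted, and the part of transfection, sorting and library quality in this was not tested.

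**Figure D4:**
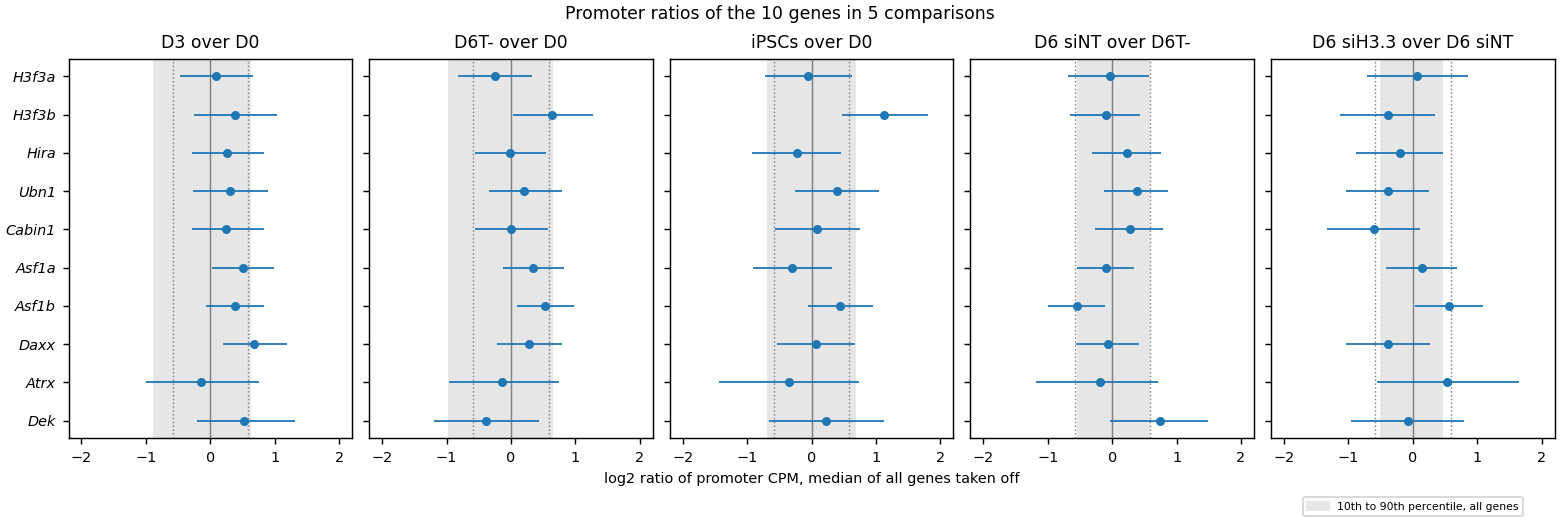
Log2 ratio of promoter CPM for each gene in 5 comparisons, with the median over all genes taken off (points, values; bars, exact 95% intervals for counting error; grey band, the 10th to 90th percentile of all genes; dotted lines, 1.5-fold). H3f3b in iPSCs over D0, at 1.13, is the point farthest from 0, and most bars cross 0.

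D6 siH3.3 was compared with D6 siNT at day 6. The paper reports that the knockdown was transient and confined to the early phase of reprogramming. The cells collected at day 6 therefore need not have been low in H3.3, and these libraries do not measure its level. The siRNAs act on mRNA, so the H3f3a and H3f3b promoters are no check of the knockdown. H3f3a held 29 tags in D6 siH3.3 and 31 in D6 siNT, a log2 ratio of 0.07 (-0.71 to 0.85). H3f3b held 28 and 41 tags, a log2 ratio of -0.38 (-1.13 to 0.35).

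Of the 10 members, 6 lay below 0 in this comparison. Cabin1, a subunit of the HIRA complex, was the 1 member past 1.5-fold, with 27 against 46 tags and a log2 ratio of -0.60 (-1.34 to 0.11), against 11.5% of all genes past 1.5-fold in either direction. Without the median taken off Cabin1 was at -0.55 and fell short of 1.5-fold, whereas Asf1b (0.61) and Atrx (0.59) passed it. Ubn1 was at -0.39 (-1.04 to 0.25) and Hira at -0.20 (-0.88 to 0.47). Asf1b was the highest member, with 72 against 55 tags and a log2 ratio of 0.56 (0.03 to 1.09), and Asf1a was at 0.14 (-0.41 to 0.69). Daxx was at -0.38 (-1.04 to 0.27), Atrx at 0.53 (-0.56 to 1.65) on 18 against 14 tags, and Dek at -0.07 (-0.96 to 0.80). No member was past 2-fold, which 0.950% of all genes were. The Asf1b interval alone left out 0, and D6 siNT, the denominator here, was also the library in which Asf1b was low against D6T-.

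Beyond the promoters, 50 separate loci were called inside the 10 genes in at least 1 library, and 40 of them touched no exon of the gene. Among the 50 loci, Hira at 0.805 kb and Asf1a at 0.688 kb were part of the promoter region in other libraries. Cabin1 held 24 and Hira 10, Atrx 5, Dek 4, Ubn1 3, Asf1a 2, H3f3a and Daxx 1 each, and H3f3b and Asf1b none. The members' genebody regions numbered 19 at D0 and 19 at D3, 22 and 3 in D6T- and D9T-, 5 and 4 in D12S+ and D16S+, 13 in iPSCs, and 2 and 5 in D6 siH3.3 and D6 siNT. All protein-coding genes together had 34280, 47162, 55025, 12298, 20080, 15677, 23180, 16702 and 16385 such regions in the same order. The members' share of them ran from 0.012% in D6 siH3.3 to 0.0561% in iPSCs.

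Of the 50 loci, 31 were called in 1 library only, against 51.4% of 99221 loci over all genes. At D0, D3 or D6T- and in none of D9T-, D12S+, D16S+ and iPSCs there were 33, against 59.4% of all loci. A locus near the lowest summit called can be missed in a shallower library, so for loci of low CPM a loss could not be told from a lack of depth.

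Some loci recurred. An intron of Asf1a, 2.05 kb past its start, was open in all 9 libraries, at 0.473 CPM at D0 and 0.992 at D3, 2.24 and 0.908 in D6T- and D9T-, 1.59 and 0.945 in D12S+ and D16S+, 0.677 in iPSCs, and 1.02 and 0.872 in D6 siH3.3 and D6 siNT. It was the 1 locus called in every library. A Cabin1 intron at 20.1 kb was called in 6 libraries, at 0.788 CPM at D0, 0.628 at D3, 0.795 at D6T-, 0.965 at D12S+, 0.489 in iPSCs and 0.551 in D6 siNT. A Cabin1 intron at 115 kb was called in 5, at 0.496 CPM at D3, 0.841 at D6T-, 0.738 at D12S+, 0.567 at D16S+ and 1.17 in iPSCs, and not at D0.

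Of the 37 loci in Hira, Ubn1 and Cabin1, 27 were called at D0, D3 or D6T- and in none of the libraries from D9T- to iPSCs. Over all protein-coding genes 59.4% of 99221 loci were called in that way. Of the rest, 5 were called both early and late, and 5, all in Cabin1, in iPSCs alone at 0.451 to 0.64 CPM. The share of all loci called in iPSCs alone was not counted. The Cabin1 intron at 59.9 kb had 1.23 CPM at D0, 0.695 at D3 and 2.01 at D6T- and was called nowhere else. In Hira, the intron at 41.5 kb had 0.595 CPM at D3 and 1.54 at D6T-, and that at 73.5 kb had 0.41 at D0, 0.595 at D3, 1.31 at D6T- and 0.459 in D6 siNT. Their D6T- values stood above the lowest summit called in each of the libraries without them, which was at most 0.53 CPM, though all promoters also had their highest median at D6T-. Ubn1 had loci at 8.28 kb (0.496 CPM at D3 and 0.841 at D6T-) and at 20.4 kb (0.926 and 1.22). All 4 Dek loci were called at D6T- alone, at 0.467 to 0.654 CPM. D6T- held the most genebody regions over all genes (55025), and the share of all loci called there alone was not counted. A locus in Daxx at 5.69 kb, within the promoter windows of Tapbp and Zbtb22, was called at D16S+ (0.708 CPM) and in iPSCs (0.602).

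**Figure D5:**
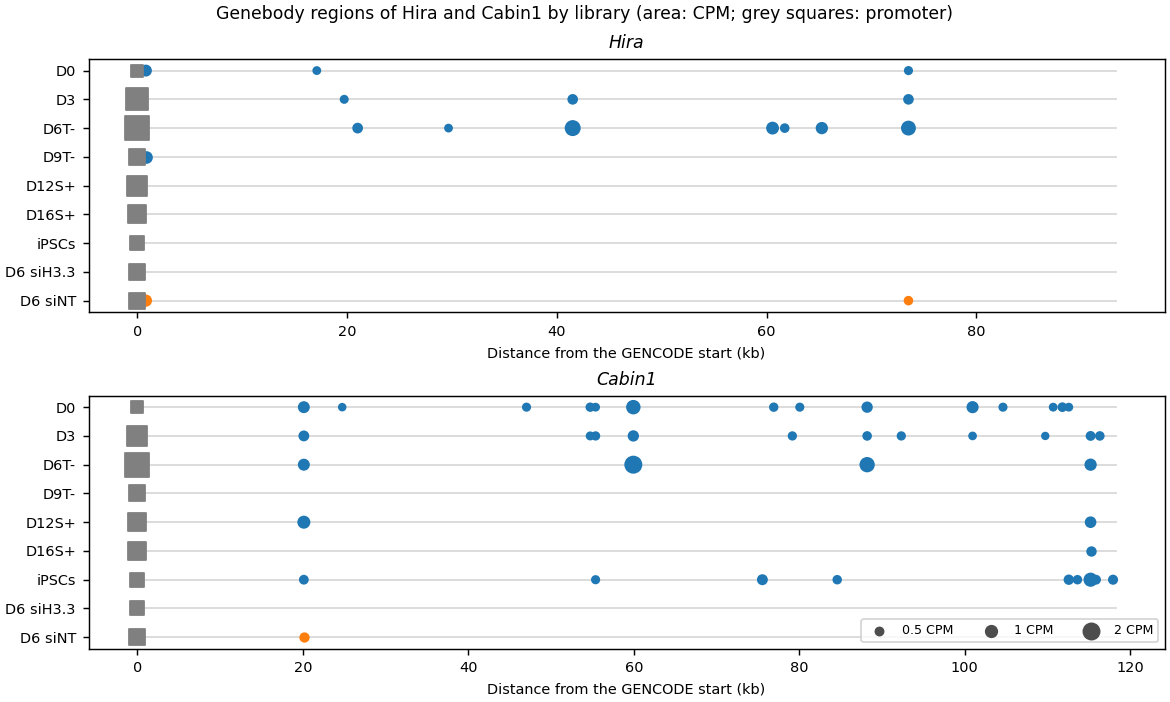
Genebody regions of Hira and Cabin1 in each library against the distance in kb from the GENCODE start (circles, regions with area in proportion to CPM; grey squares, the promoter; grey lines, the gene). Most circles lie in D0, D3 and D6T-, and iPSCs hold 9 regions in Cabin1 and none in Hira.

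The 5 loci printed next are those called in 5 or more libraries and the highest early locus of Hira and of Cabin1, 100 bases each on the plus strand of mm9, clear of exons. Capitals mark TGANTCA, the AP-1 motif. It matched within 200 bp around 9 of the 50 summits, around 8 of the 22 member summits called at D6T-, and around 36.1% of all 55025 genebody regions of D6T-.
Asf1a at 2.05 kb, chr10:53318767-53318866: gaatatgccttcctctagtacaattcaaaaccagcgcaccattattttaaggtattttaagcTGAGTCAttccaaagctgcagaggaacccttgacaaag
Cabin1 at 20.1 kb, chr10:75206941-75207040: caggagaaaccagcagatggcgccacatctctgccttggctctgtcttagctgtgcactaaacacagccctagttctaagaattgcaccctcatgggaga
Cabin1 at 115 kb, chr10:75111838-75111937: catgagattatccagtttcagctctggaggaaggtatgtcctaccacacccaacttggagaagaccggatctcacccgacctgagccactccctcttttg
Cabin1 at 59.9 kb, chr10:75167112-75167211: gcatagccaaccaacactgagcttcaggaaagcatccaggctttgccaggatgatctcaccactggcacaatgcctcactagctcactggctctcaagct
Hira at 41.5 kb, chr16:18918581-18918680: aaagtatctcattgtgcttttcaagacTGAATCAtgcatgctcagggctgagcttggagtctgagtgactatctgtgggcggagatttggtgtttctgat
The motif matched at the Asf1a and Hira loci and not within the Cabin1 stretches. ATTTGCAT, the octamer bound by Oct4 and its relatives, matched around 2 of the 50 summits, 1 of the 22 at D6T- and 1.61% of the D6T- regions.

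In the siRNA libraries the members held 5 genebody regions in all. Both regions of Asf1a were shared, and 3 were called in D6 siNT only (Hira at 0.805 and 73.5 kb and Cabin1 at 20.1 kb), with none in D6 siH3.3 only. The Hira region at 0.805 kb was part of the promoter region in D3, D6T-, D12S+, D16S+ and iPSCs. The Asf1a region at 0.688 kb was part of it in D3, D6T-, D12S+ and D16S+. Over all protein-coding genes 49.5% of 22575 such regions were called in only 1 of both libraries, with 5691 in D6 siH3.3 and 5475 in D6 siNT. With 3 of 5 the members were near that share. The D6 siNT-only regions had 0.826, 0.459 and 0.551 CPM, and the lowest summit called in D6 siH3.3 was 0.429 CPM.

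The wider histone deposition pathway was read from 24 further genes, among them those for CAF-1, FACT, other H3-H4 carriers and readers of H3.3. Of these, 21 had a promoter region in all 9 libraries, beside 58.7% of the genes called in at least 1 library. In iPSCs over D0 their median log2 ratio was 0.20, with 1 of 23 past 1.5-fold upwards (Supt6h, an elongation factor and histone chaperone, 1.18) and 1 downwards (Npm1, a nucleolar chaperone, -0.63), so that 2 of 23 were past it beside 25.9% of all genes. In D6 siH3.3 over D6 siNT the median was 0.07, with none of 22 past 1.5-fold upwards and 2 downwards beside 11.5% of all genes, and the values ran from -0.70 for Tonsl, which reads new histones behind the fork, to 0.34 for Morc3.

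The genes whose promoters varied most like the H3.3 genes over the 9 libraries are given by Pearson's r of log2 CPM with each library's median taken off, among 9417 genes with a summit near a start in all libraries, as a description. For H3f3a they were Capza1 and St7l (both 0.972) and Ccdc66 (0.954), for H3f3b Parp16 (0.949), Fam103a1 (0.921) and Fbrsl1 (0.92), and for Hira Ifitm2 (0.926), Crocc (0.883) and Uqcrc2 (0.877). The 9 points share depth and normalisation, and the highest of so many coefficients are high by choice.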

How the data were processed

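ATAC-Seq peak tables of 9 libraries were read, 1 per condition. The authors mapped 51 bp reads to mm9, removed duplicates, reads of mitochondrial DNA and reads with several loci, and called peaks per library with MACS2 2.1.0.20151222 without a control (q-value cutoff 0.05, tags extended to 200 bp, no local background), with no Tn5 offset given in the sources used here, per the file headers and the methods. The deposited pileup is a signal, the count of extended tags over a summit, not scaled. The deposited fold enrichment is a ratio to an even genome-wide background, and significance is deposited as −log10 of p and q.

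Here overlapping peaks were merged and matched to GENCODE vM1 genes on mm9. The promoter was 3 kb upstream of any start, and the rest of the gene up to its end the genebody. Pileups were scaled to 1000000 total tags (CPM), and log2 ratios had the median over genes taken off. Total tags ran from 13213117 to 31714845 and set the counting error, given by exact Poisson and Clopper-Pearson intervals (95%) that do not cover biological or library spread. The members and gene lists were chosen with earlier results of these data known. All 10 members are named, from the pathway list at most 4 genes with the extreme ratios, 3 genes most like H3f3a, H3f3b and Hira, and divergent neighbours. Alternatives were other scalings, windows and peak filters. Python 3.11.15, numpy 2.4.6, pandas 2.3.3 and scipy 1.17.1 were used, and functions were tested on simulated data. Protein sequences are not printed.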

Additional observations from a re-analysis of the deposited data

How the results depend on the processing

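Of 438 alternative values of single members' ratios, 405 lay within the counting interval of the value reported. Without the median taken off, the members' median log2 ratio was 1.51 for D3 over D0, 2.03 for D6T- over D0 and -1.47 for D6 siNT over D6T-, which is the shift of all promoters, Dek in the last comparison turned from 0.74 to -0.68, and 2 members in place of 1 passed 1.5-fold in D6 siH3.3 over D6 siNT. With the start farthest upstream alone, H3f3b turned from 0.38 to -0.44 at D3 over D0 and from 0.63 to -0.46 at D6T- over D0 and was 0.10 in iPSCs over D0, since that window holds the Unk summit and not the H3f3b start. With the median over genes called in all 9 libraries, Daxx at D3 over D0 (0.55) and H3f3b at D6T- over D0 (0.50) fell short of 1.5-fold, as did the latter (0.56) with every library limited to as many of its strongest peaks as the smallest has. With the stronger 50% of peaks, 1 genebody region in place of 3 was called in only 1 siRNA library, as fewer regions were kept (2 in place of 5). No other median or count moved past its limit. Taking H3f3b from its own start was chosen after the data were seen and changed no call. No paired analysis was possible because each condition has 1 library and the labels carry no replicate numbers. Depth limits what can be read most at D9T-.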
